A study of Homo sapiens with 6 samples.

Results

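The 10 genes described here encode the subunits of the transcription factor NF-κB and proteins grouped here as its inhibitors. They were selected by gene symbol, with earlier results of these data known. The 3 canonical subunits were NFKB1, RELA and REL. The non-canonical subunits were NFKB2 and RELB, and the 5 inhibitors were NFKBIA, NFKBIB, NFKBIE, TNFAIP3 and BCL3. All 10 were found among the 30735 genes listed by Ensembl identifier, and all 10 passed the filter on low values, which asked for 1 RPKM or more in 3 or more samples. RPKM, as which the deposited values were read, is the number of reads divided by the length of the gene and by the depth of the library. This puts genes and samples on a common scale but does not adjust for shifts in the makeup of a library. On GRCh38, with the gene models of GENCODE release 29, the canonical subunit genes lie at chr4:102501329-102617302 (NFKB1), chr11:65653596-65663094 (RELA) and chr2:60881521-60931610 (REL). The non-canonical ones lie at chr10:102394110-102402529 (NFKB2) and chr19:45001430-45038198 (RELB). The inhibitor genes lie at chr14:35401511-35404749 (NFKBIA), chr19:38899700-38908893 (NFKBIB), chr6:44258166-44265788 (NFKBIE), chr6:137867188-137883312 (TNFAIP3) and chr19:44747705-44760044 (BCL3). RELA, NFKBIA and NFKBIE are on the minus strand and the other 7 on the plus strand.

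RNA was sequenced from PANC-1, an established human pancreatic cancer cell line, after transfection with CD73 siRNA (3 samples) or with negative control siRNA (3 samples). Both groups were grown in DMEM with 10% fetal bovine serum and transfected with Lipofectamine 3000 in serum-free medium. The study names the CD73 siRNA as 1 catalogue item with no sequence. The time of harvest was not given in the sources used here, and the labels name no cytokine treatment. The comparison asks which genes lie downstream of CD73, the cell surface protein encoded by NT5E.

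NF-κB proteins act in pairs that are kept in the cytoplasm by inhibitors of the IκB family. In the canonical arm, a signal such as TNF-α makes the IKK kinase complex mark IκBα for destruction, and pairs of RELA with p50, the product of NFKB1, enter the nucleus. In the non-canonical arm, the kinase NIK leads to processing of p100, the product of NFKB2, into p52, which pairs with RELB. Several of the inhibitor genes are themselves NF-κB targets, so that their mRNA is part of a feedback loop. In pancreatic ductal adenocarcinoma this pathway is known for persistent activity.

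The promoter windows of the members are shown first because binding sites in them are the textbook link between NF-κB activity and these mRNAs. The windows were those of RefSeq on GRCh38.p14 and ran from 250 bases before a gene start to 50 bases after it. For 8 of the 10 members there were 13 such windows, and RELB and NFKBIE had no entry. Both strands were searched for the 10-letter κB consensus, and matches may overlap. It was present in 7 of the 8 member genes, with the exception of RELA, and in 13.3% of the 27305 genes with a window. The lines below show the matches whose letters were shared by member genes most often, chosen after the matches were seen. Capitals mark the match, and each sequence reads along the strand of the gene.
NFKBIA, chr14:35404811-35404840, minus strand: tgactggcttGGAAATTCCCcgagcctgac
NFKB1, chr4:102501300-102501329, plus strand: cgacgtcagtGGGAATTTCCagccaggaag
NFKBIB, chr19:38899931-38899960, plus strand: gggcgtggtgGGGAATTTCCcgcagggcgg
REL, chr2:60881518-60881547, plus strand: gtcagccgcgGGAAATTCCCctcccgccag
NFKB2, chr10:102395674-102395703, plus strand: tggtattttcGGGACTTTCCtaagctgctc
TNFAIP3, chr6:137867182-137867211, plus strand: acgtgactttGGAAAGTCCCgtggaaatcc
NFKBIA, NFKB1, NFKBIB and REL carried the same match, GGGAATTTCC, which in NFKBIA and REL lay on the opposite strand. These letters were present in 0.179% of all genes with a window. NFKB2 and TNFAIP3 carried GGGACTTTCC, in TNFAIP3 on the opposite strand, as did 0.227% of all genes. NFKBIB and REL also held GGGAAATTCC, shifted by 1 base against the match shown, and 0.201% of all genes held it. Counted from the RefSeq start of its window, which differs from the GENCODE gene start given above, the match began 81 bases upstream in NFKBIA, 49 in NFKB1, 46 in REL and 67 in TNFAIP3. It began 28 bases upstream of the second of the RefSeq starts of NFKBIB and 21 upstream of the third of those of NFKB2. The matches of NFKBIB, NFKB2, REL and TNFAIP3 therefore lie inside the GENCODE gene spans. A match is a string of letters, and binding was not measured in these samples.

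The knockdown was visible in NT5E, which had 3.36, 6.85 and 8.22 RPKM after CD73 siRNA (replicates 1, 2 and 3) and 13.96, 13.87 and 17.14 RPKM after negative control siRNA. Library totals read from the steps of the values lay between 15009112 and 16836210. Mitochondrial genes took 15.41% to 19.46% of the summed RPKM in CD73 knockdown cells and 16.27% to 22.08% in the controls. The 22.08% was that of negative control replicate 1. This sample also had the largest summed RPKM (273740.8) and the fewest genes at 1 RPKM or more (12291). Of 7 ductal epithelial markers 6 reached 1 RPKM and KRT7 did not. The summed level of the 7 was 72.8 to 105 RPKM in CD73 knockdown cells against 138 to 255 RPKM in the controls. It came mostly from KRT8 and KRT18, which had 39.2% and 61.6% of the control mean. KRT19, EPCAM, CDH1 and MUC1 had 79.2%, 102%, 83.5% and 111% of it, with groups that overlapped, so the markers did not fall as a set. None of the leukocyte, endothelial or endocrine markers in the files reached 1 RPKM in any sample. Of the fibroblast markers only COL1A1 did, the summed level being 9.01 to 16.3 RPKM after CD73 siRNA and 10.6 to 19.2 RPKM in the controls, and 0 of the 4 acinar marker symbols were matched. The lower KRT8 and KRT18 levels moved with the NF-κB genes described next, and their part in these was not tested.

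NFKBIA encodes IκBα, the inhibitor that is destroyed and resynthesised in each round of canonical signaling. It had 19.19, 26.45 and 15.42 RPKM in CD73 siRNA replicates 1, 2 and 3. The negative controls with the same numbers had 60.98, 34.82 and 37.23 RPKM. Every knockdown sample was below every control, and control replicate 1 stood well above the other controls. The mean of 20.35 ± 5.61 RPKM was 45.9% of the control mean of 44.34 ± 14.5 RPKM (SD, n = 3 each). In limma's moderated test on log2(RPKM + 1), NFKBIA fell by 1.07 on the log2 scale (standard error 0.25, 95% interval -1.65 to -0.5), with an unadjusted p of 0.00252 and a Benjamini-Hochberg adjusted p of 0.303. The exact permutation test of this single gene gave p = 0.1, which is the smallest value that 3 samples against 3 allow. In bulk samples like these, fewer cells expressing a gene and less of its RNA per cell cannot be told apart. Without CD73 siRNA replicate 1 the difference was -1.05 and the unadjusted p was 0.0103, so that NFKBIA was no longer called at the limit of 0.01. Without negative control replicate 1 the difference shrank to -0.83, the smallest fall when single samples were left out, with an unadjusted p of 0.00649 in limma.

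NFKB2 encodes p100, which is both the precursor of the non-canonical subunit p52 and an inhibitor of RELB. It had 19.68, 30.14 and 17.92 RPKM in knockdown samples 1, 2 and 3, while the controls had 54.38, 39.68 and 32.53 RPKM. The groups did not overlap, and the distance between the highest knockdown sample and the lowest control was small. Mean levels were 22.58 ± 6.6 RPKM after knockdown and 42.2 ± 11.1 RPKM in the controls (SD, n = 3 each). NFKB2 fell by 0.88 on the log2 scale (standard error 0.23) with an unadjusted p of 0.0054 and an adjusted p of 0.303 in limma. The call was less firm than that of NFKBIA. Its unadjusted p rose to 0.0227 or 0.0208 when CD73 siRNA replicate 1 or 3 was left out and to 0.0205 or 0.0113 when negative control replicate 1 or 2 was left out, while the difference stayed between -1.1 and -0.68 over the 6 fits that each left out a sample.

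NFKBIA and NFKB2 were the 2 of 10 members past an unadjusted p of 0.01, both lower in CD73 knockdown cells. Among all 12527 genes tested, 3.13% passed this limit in either direction, 1.31% as lower and 1.82% as higher. After Benjamini-Hochberg adjustment in limma, 0 of the 10 members and 0.00798% of all tested genes had a p below 0.05, and 6 members had an unadjusted p below 0.05, as did 12.1% of all tested genes. The knockdown samples were all below the controls for 4 members and all above them for 0. Among all tested genes 18.4% had groups that did not overlap, 8.07% with the knockdown lower and 10.3% with it higher. A linear model for each gene without moderation put 0 members past an unadjusted p of 0.01. The median log2 difference of the 10 members was -0.52 and that of all tested genes was 0.009. It was negative for 9 of the members and for 48.0% of all tested genes. Of the 10 differences, 6 lay below the 5th percentile of all tested genes (-0.35) and 1, that of NFKBIB, lay above the 95th (0.42). The members were chosen with earlier results of these data known and were measured in the same samples. Their counts beside the shares of all genes are therefore a description and not a test.

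**Figure D1:**
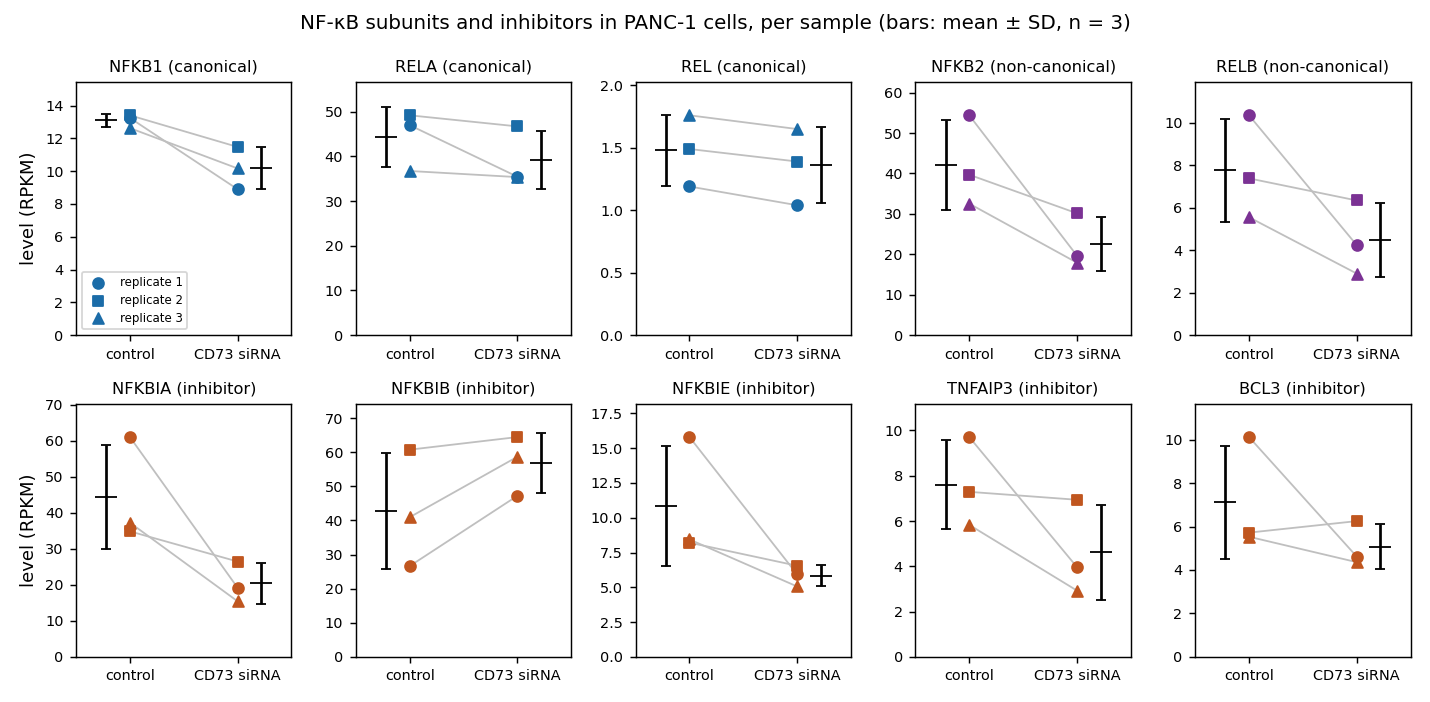
Level in RPKM of each of the 10 genes (vertical axes, each starting at 0) in the 3 negative control and 3 CD73 siRNA samples of PANC-1 cells, with lines joining samples of the same replicate number and black bars for the mean ± SD. NFKBIA, NFKB2, NFKBIE and NFKB1 show no overlap between the groups, and NFKBIB is the one gene whose lines all run upward.

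The labels number the samples 1 to 3 in both groups. Across all tested genes, deviations of equally numbered samples from their group means correlated at 0.197, 0.481 and 0.553 for the numbers 1, 2 and 3. The members did not follow this for number 1. Control replicate 1 was the highest control for 6 of them, and CD73 siRNA replicate 1 was the highest knockdown sample for 0. When limma was given the sample number as a replicate block, 5 of the 10 members passed an unadjusted p of 0.01, all of them lower. Among all tested genes 7.57% then passed in either direction, 3.3% as lower and 4.27% as higher. The added members were NFKB1, RELB and NFKBIE, with unadjusted p-values of 0.0093, 0.00556 and 0.00518 in limma. NFKBIA and NFKB2 had unadjusted p-values of 0.00186 and 0.00225 in this fit. The 5 adjusted p-values from limma lay between 0.113 and 0.129. In all, 0 of the 12527 genes (0.0%) had an adjusted p below 0.05 in this limma fit, with 948 at an unadjusted p below 0.01.

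The size of the difference depended strongly on the number. It was largest in the samples numbered 1 for all 10 members and smallest in those numbered 2 for 9 of them. How many of all tested genes had this order was not counted, so it cannot be called particular to the members. For NFKBIA the log2 differences were -1.62, -0.38 and -1.22 in the pairs 1, 2 and 3. For NFKB2 they were -1.42, -0.39 and -0.83. NT5E had -1.78, -0.92 and -0.98, so that its largest difference was also in pair 1 while the pairs 2 and 3 were close. Over the 10 members the median difference was -1.05 in pair 1, -0.13 in pair 2 and -0.46 in pair 3. Of the members, 8 were lower in all 3 pairs, as were 24.5% of all tested genes, and NFKBIB was higher in all 3, as were 27.0%.

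**Figure D2:**
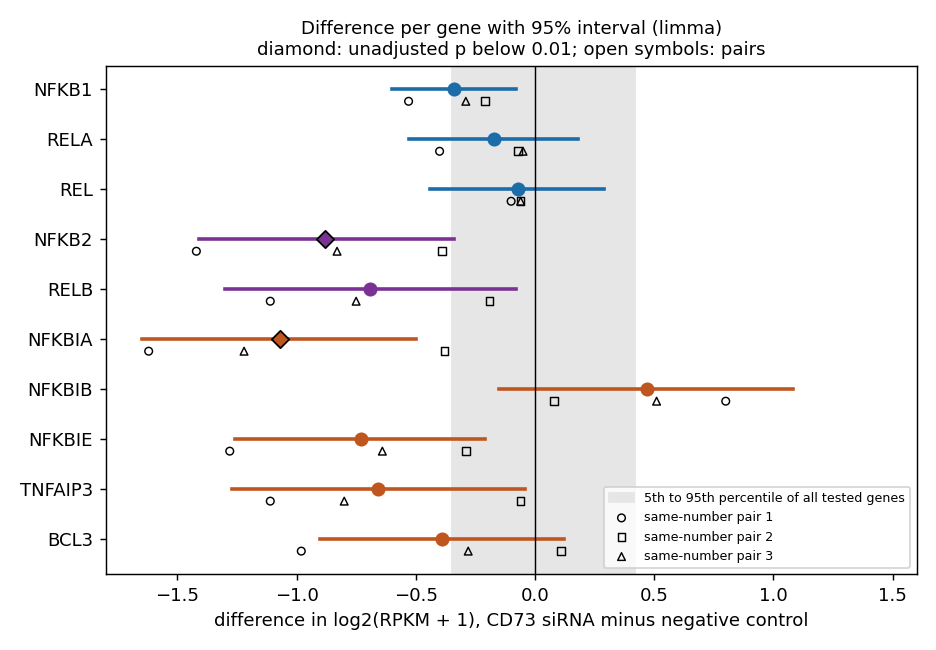
Difference in log2(RPKM + 1) between CD73 siRNA and negative control (horizontal axis) for the 10 genes, with filled symbols for the limma estimate (blue canonical, purple non-canonical, orange inhibitor, diamonds for an unadjusted p below 0.01), lines for its 95% interval and open symbols for the 3 pairs of equal replicate number. The grey band holds the 5th to 95th percentile of all tested genes, from -0.35 to 0.42, and the open circles of pair 1 lie farthest from 0 in every row.

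Among the canonical subunits, RELA, which carries the main activation domain of the pathway, had 35.45, 46.71 and 35.36 RPKM in CD73 siRNA replicates 1, 2 and 3. The controls had 46.98, 49.19 and 36.73 RPKM. The groups overlapped, and the samples numbered 2 were the highest of each group. The log2 difference was -0.17 (95% interval -0.53 to 0.18), with an unadjusted p of 0.29 in limma, and it ranged from -0.3 to -0.09 when single samples were left out. NFKB1, the gene of p105 and p50, had 8.9, 11.48 and 10.17 RPKM against 13.25, 13.41 and 12.63 RPKM. The groups did not overlap and the controls were tightly spaced. Its log2 difference of -0.34 (standard error 0.11) had an unadjusted p of 0.0173 and an adjusted p of 0.347 in limma. REL, the gene of c-Rel, which is best known from lymphocytes, was the lowest of the members in both groups. It had 1.04, 1.39 and 1.65 RPKM in CD73 knockdown cells and 1.19, 1.49 and 1.76 RPKM in the controls. These values overlapped, the log2 difference was -0.07 (95% interval -0.44 to 0.29), and its sign turned when CD73 siRNA replicate 1 (0.03) or negative control replicate 3 (0.01) was left out. The exons of REL share 5702 of 13170 bases with a non-coding RNA on the same strand, AC010733.2. How reads in the shared bases were counted was not tested. The number of reads behind REL did not come out whole, and the cause of this was not tested.

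RELB, the partner of p52, had 4.24, 6.34 and 2.9 RPKM in CD73 siRNA replicates 1, 2 and 3 and 10.35, 7.38 and 5.55 RPKM in the controls. Only CD73 siRNA replicate 2 reached into the range of the controls. The log2 difference was -0.69 (standard error 0.26), with an unadjusted p of 0.0321 and an adjusted p of 0.378 in limma. Without CD73 siRNA replicate 2 the difference was -0.92 and the unadjusted p was 0.00611. It was -0.46 with an unadjusted p of 0.108 without CD73 siRNA replicate 3, and -0.48 with an unadjusted p of 0.119 without negative control replicate 1. Between 148 and 504 reads stood behind each RELB value, against 1353 to 3911 for NFKB2 and 3012 to 4174 for RELA.

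The remaining inhibitors did not move as one. NFKBIE encodes IκBε, a second feedback inhibitor of the IκB family. It had 5.93, 6.55 and 5.06 RPKM in CD73 knockdown cells and 15.8, 8.21 and 8.44 RPKM in the controls. The groups did not overlap, and control replicate 1 had nearly double the level of the other controls. The log2 difference was -0.73 (standard error 0.23), with an unadjusted p of 0.0126 and an adjusted p of 0.332 in limma. Without negative control replicate 2 or 3 its unadjusted p in limma was 0.00664 or 0.00989. Without negative control replicate 1 the difference shrank to -0.45 with an unadjusted p of 0.011, and without CD73 siRNA replicate 1 or 3 the unadjusted p was 0.0322 or 0.0422.

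TNFAIP3 encodes A20, an enzyme that edits ubiquitin chains and shuts off signaling upstream of IKK. Its levels were 3.97, 6.94 and 2.93 RPKM in CD73 siRNA replicates 1, 2 and 3 and 9.71, 7.29 and 5.83 RPKM in the controls. The groups overlapped through CD73 siRNA replicate 2. The log2 difference was -0.66 (standard error 0.27) with an unadjusted p of 0.0392 and an adjusted p of 0.389, and without that sample it was -0.94 with an unadjusted p of 0.00248. Without CD73 siRNA replicate 3 it was -0.43 with an unadjusted p of 0.132, and without negative control replicate 1 it was -0.49 with an unadjusted p of 0.139. BCL3 encodes an atypical nuclear IκB protein that binds p50 and p52. It had 4.62, 6.25 and 4.36 RPKM against 10.12, 5.72 and 5.53 RPKM, so that only control replicate 1 stood apart. Its log2 difference was -0.39 (95% interval -0.9 to 0.12), with an unadjusted p of 0.12, in pair 2 it was 0.11, and without negative control replicate 1 it was -0.14.

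NFKBIB encodes IκBβ, an inhibitor that is degraded and replaced more slowly than IκBα. It was the one member with a higher mean in CD73 knockdown cells, at 56.77 ± 8.76 against 42.76 ± 17.1 RPKM (SD, n = 3 each). The samples had 47.21, 64.44 and 58.65 RPKM after CD73 siRNA and 26.61, 60.74 and 40.94 RPKM after negative control siRNA. The groups overlapped through control replicate 2, and the knockdown sample was the higher one in all 3 pairs. The log2 difference was 0.47 (95% interval -0.15 to 1.08), with an unadjusted p of 0.12 in limma and of 0.012 with the replicate block. Without negative control replicate 2 it was 0.75, with an unadjusted p of 0.00725, and without negative control replicate 1 it was 0.17, with an unadjusted p of 0.424. NFKBIB shares 40 exon bases with SIRT2 on the opposite strand, and whether reads were counted by strand was not given in the sources used here. Its promoter windows held 3 κB matches, and the match shown above had the same letters as those of NFKBIA and NFKB1. Whether any of them is bound was not measured.

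Set side by side, the 3 canonical subunits had a median log2 difference of -0.17 and 0 of them passed the limit. The non-canonical pair had a median of -0.78 with 1 past the limit, and the 5 inhibitors had a median of -0.66 with 1 past the limit. The inhibitor median was -0.43 without CD73 siRNA replicate 3. Within the pairs 1, 2 and 3 the medians were -0.4, -0.07 and -0.06 for the canonical subunits. They were -1.27, -0.29 and -0.79 for the non-canonical ones and -1.11, -0.06 and -0.64 for the inhibitors. The order of the canonical and non-canonical classes was the same in the 3 pairs, whereas the inhibitor median was not below the canonical one in pair 2. The difference between the canonical and non-canonical classes was not tested because they hold 3 and 2 genes chosen by name.

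The makeup of the NF-κB mRNA also differed between the groups of samples, which is described here without a test. In the negative controls 4 genes were close together at the top, NFKBIA at 44.34, RELA at 44.3, NFKBIB at 42.76 and NFKB2 at 42.2 RPKM, and their ranges overlapped. NFKB1 at 13.1 RPKM followed with a gap, then NFKBIE, RELB, TNFAIP3 and BCL3 with overlapping ranges between neighbours, and REL at the bottom. In CD73 knockdown cells the order at the top was NFKBIB at 56.77, RELA at 39.17, NFKB2 at 22.58 and NFKBIA at 20.35 RPKM. NFKBIB was there above RELA in every sample, while the ranges of NFKB2 and NFKBIA overlapped.

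Of the summed RPKM of the 5 subunits, RELA took 51.1%, 48.6% and 52% in CD73 siRNA replicates 1, 2 and 3 and 37.2%, 44.3% and 41.2% in the controls. NFKB2 took 28.4%, 31.4% and 26.4% against 43.1%, 35.7% and 36.5%. The groups did not overlap for either gene. Shares of a sum depend on each other, so a lower NFKB2 level raises the RELA share. The RELA level itself was not higher, at 39.17 RPKM in CD73 knockdown cells and 44.3 RPKM in the controls, with overlapping groups. Among the IκBα, IκBβ and IκBε genes, NFKBIA took 24.4 ± 4.26% in CD73 knockdown cells and 45.2 ± 12.9% in the controls (SD, n = 3 each). NFKBIB took 68.5 ± 4.88% and 43.8 ± 16.7%, a share that also rises where NFKBIA falls. Control replicate 1 was the only sample in which NFKBIA, at 59%, took more than NFKBIB, at 25.7%, and in control replicate 2 the shares were 33.6% and 58.5%.

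**Figure D3:**
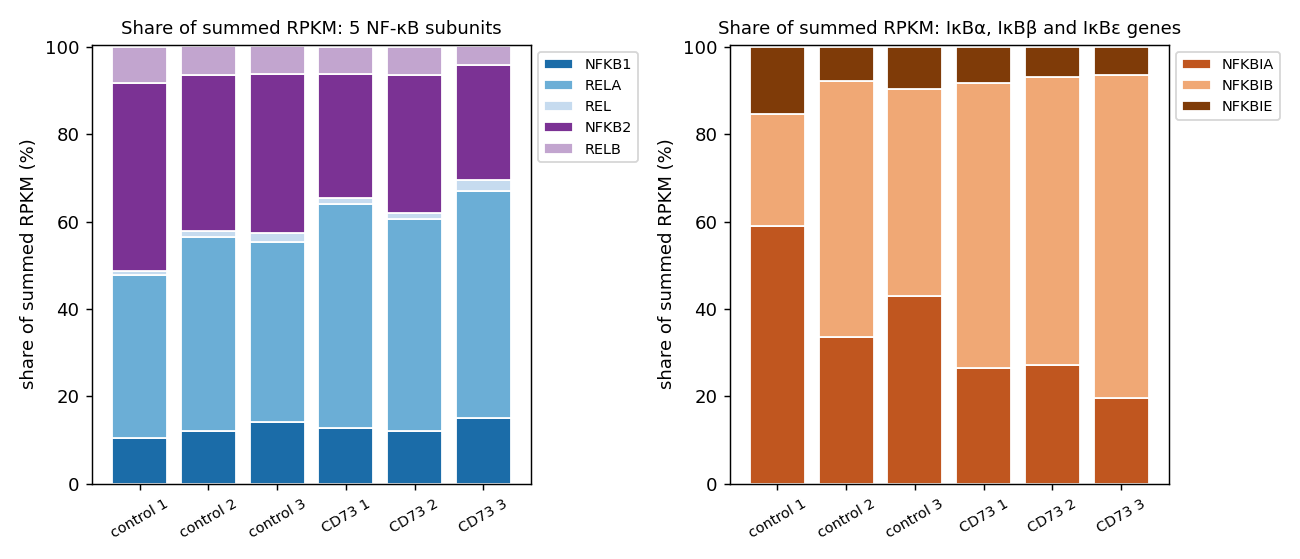
Share in percent of the summed RPKM (vertical axis) taken by each of the 5 subunit genes (left) and by the genes of IκBα, IκBβ and IκBε (right) in the 3 negative control and 3 CD73 siRNA samples. The RELA share lies between 48.6% and 52% after CD73 siRNA and between 37.2% and 44.3% in the controls, and the NFKBIA share is below 28% in every knockdown sample.

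The balance between inhibitor and subunit mRNA was also read as a ratio within each sample, given here without a test. The ratio of NFKBIA to RELA was 0.541, 0.566 and 0.436 in CD73 siRNA replicates 1, 2 and 3 and 1.3, 0.708 and 1.01 in the controls. Every knockdown sample was below every control. The ratio of RELB to RELA was 0.112 ± 0.0277 in CD73 knockdown cells and 0.174 ± 0.0403 in the controls (SD, n = 3 each), also without overlap. The ratio of NFKB2 to NFKB1 was 2.21, 2.62 and 1.76 against 4.1, 2.96 and 2.58, and here CD73 siRNA replicate 2 overlapped with control replicate 3.

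The other genes of the pathway were taken from 4 lists of textbook members, chosen with earlier results of these data known. Of the IKK complex and its neighbouring kinases, 1 of 10 tested genes passed an unadjusted p of 0.01 and the list median was -0.02. The subunits of the IKK complex had log2 differences of -0.04 (CHUK), -0.15 (IKBKB) and 0.06 (IKBKG), with 0 of the 3 past the limit. The gene that fell was MAP3K14, which encodes NIK, the kinase at the head of the non-canonical arm. It had 12.68, 17.92 and 14.07 RPKM after CD73 siRNA against 27.18, 22.28 and 19.51 RPKM in the controls, without overlap. The log2 difference was -0.6 (standard error 0.16, unadjusted p = 0.00612, adjusted p = 0.305 in limma).

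Of the adaptors and ubiquitin ligases between receptors and kinases, 2 of 17 fell and 1 rose, with a list median of -0.03. The gene that rose was TRAF3, an adaptor that is known to keep NIK low by sending it to degradation. It had 10.04, 10.9 and 12.02 RPKM in CD73 knockdown cells and 6.22, 8.04 and 7.91 RPKM in the controls. No knockdown sample reached down to the controls, and the pairs differed by 0.61, 0.4 and 0.55 on the log2 scale, so that pair 2 was closer to the others than it was for NFKBIA. The unadjusted p was 0.00348 and the adjusted p was 0.303 in limma. MYD88 and IRAK4, the adaptor and kinase of interleukin-1 and Toll-like receptors, fell to 67.6% and 65.1% of the control mean (unadjusted p = 0.00957 and 0.00718, adjusted p = 0.315 and 0.305 in limma). BIRC3, a ubiquitin ligase and NF-κB target, had 20.69, 44.49 and 12.89 RPKM against 32.36, 49.77 and 19.38 RPKM. Its groups overlapped widely, and its unadjusted p in limma was 0.354, or 0.00525 with the replicate block.

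Of 12 other negative regulators tested, 0 passed an unadjusted p of 0.01 in limma, and their median was -0.12. The smallest p of this list was that of ZC3H12A, an RNase that degrades inflammatory mRNAs, with an unadjusted p of 0.0138 and a log2 difference of -0.72. With the replicate block its p was 0.00433 and it was the only one of the 12 to pass. Of the textbook NF-κB target genes, 24 of 26 symbols were found in the files and 15 were expressed highly enough to be tested. The median of these 15 was -0.44 and 4 genes fell past the limit. Of the 15 differences 14 were negative, as were 48.0% of those of all tested genes. Because this list was chosen with earlier results known, the count is a description and not a test. ICAM1, an adhesion molecule for leukocytes, fell to 36.4% of the control mean (unadjusted p = 0.00102). TNFAIP2, a TNF-induced gene, fell to 47.3%, CCND1, the gene of cyclin D1, to 54.4% and PLAU, the gene of urokinase, to 56.6%. Their unadjusted p-values in limma were 0.00542, 0.00186 and 0.00446, and all 4 adjusted p-values were 0.303. With the replicate block 7 of the 15 passed, as did 7.57% of all tested genes. The calls added by this fit were CD83 and MYC, which were lower, and BCL2L1, which was higher.

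Across the 4 lists, 8 of 54 tested genes (14.8%) passed the limit, 7 lower and 1 higher, beside 3.13% of all tested genes, 1.31% lower and 1.82% higher. ICAM1 and CCND1 were past it in all 6 fits that each left out a sample, TRAF3 in 4, TNFAIP2 in 3, MAP3K14 and PLAU in 2, and IRAK4 and MYD88 in 1. Without CD73 siRNA replicates 1, 2 and 3, in that order, 5, 3 and 6 of the 8 calls were lost, and without negative control replicates 1, 2 and 3 it was 4, 2 and 3. The largest unadjusted p in these fits was 0.0332.

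**Figure D4:**
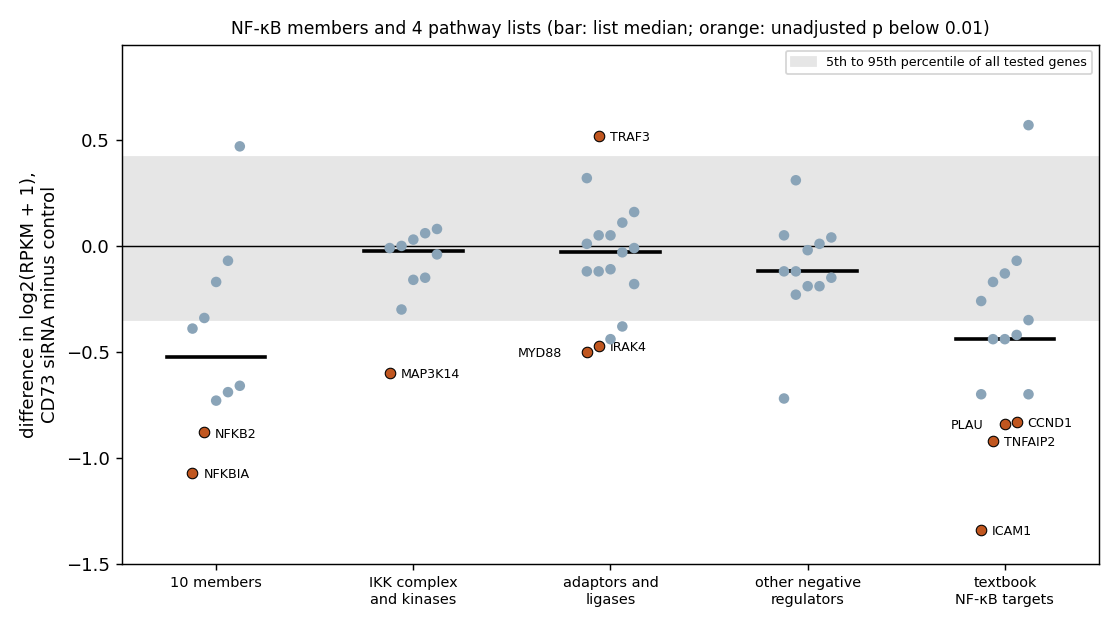
Difference in log2(RPKM + 1) between CD73 siRNA and negative control (vertical axis) for the 10 NF-κB genes and the tested genes of 4 pathway lists, one point per gene, with a bar for the median of each list and a grey band for the 5th to 95th percentile of all tested genes. Orange points passed an unadjusted p of 0.01, and the medians are -0.52 for the 10 genes, -0.02, -0.03 and -0.12 for the 3 lists of signaling genes and -0.44 for the textbook targets.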

How the data were processed

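RNA-seq of 3 PANC-1 samples with CD73 siRNA and 3 with negative control siRNA was analysed, grouped and numbered by their titles. Each sample's table, as deposited by the authors, lists Ensembl genes with a normalized value whose unit is not named. The submitters' processing notes name bcl2fastq, Bowtie2 2.2.3, HTSeq 0.6.0 and hg38. The deposited values were read as RPKM, because times the merged exon length in GENCODE release 29 they came out as whole multiples of 1 step per sample (tolerance 0.05 reads) for 95.5% to 95.6% of genes worth under 1000 reads, and these steps gave the library totals and reads. Reads cover counting error only and were not tested. 132 identifiers had no length, and 6299 had no symbol in the name table.

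Genes that reached 1 RPKM in 3 or more samples were compared on log2(RPKM + 1) with limma 3.58.1 (lmFit, eBayes with a trend) in R 4.3.3. This pseudocount understates changes of low genes. Calls used a limit of 0.01, the value of the study's threshold, applied here to the unadjusted p. The paper names no model for its threshold and does not say whether its p was adjusted. Benjamini-Hochberg adjustment covered all 12527 tested genes. Exact permutation tests were two-sided (scipy 1.17.1). The numbers were taken to pair samples because the deviations of equally numbered samples from their group means correlated across genes at 0.197, 0.481 and 0.553, all above 0.1. The paper describes separate knockdown experiments, and p-values measure only the spread between these samples. Annotation and strand setting were not given in the sources used here. The scripts were tested on simulated data. Members and lists were chosen with earlier results of these data known. The genes named were all members, NT5E, list genes past p below 0.01 or, in a list with none, its smallest p, and for NFKBIA, RELB and RELA the 3 most alike genes. CHUK, IKBKB, IKBKG, BIRC3, CD83, MYC, BCL2L1, KRT7, KRT8, KRT18, KRT19, EPCAM, CDH1 and MUC1 were named after their values were seen. Alternatives were a pseudocount of 0.1, no filter, the replicate block, median-of-ratios scaling, no moderation, no trend and leaving out each sample.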

Additional observations from a re-analysis of the deposited data

How the results depend on the processing

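Of the 10 members, 9 were lower in CD73 knockdown cells in 10 of the 12 alternatives and 8 in the remaining ones, where REL turned to 0.03 (without CD73 siRNA replicate 1) or 0.01 (without negative control replicate 3), in a range from -0.16 to 0.03 over the left-out samples. Members past an unadjusted p of 0.01 numbered 2, and 1 with no filter, 5 with the replicate block, 0 with no moderation and 0 to 4 when single samples were left out. NFKBIA passed under 10 of the 12 alternatives and NFKB2 under 6. Genes past this limit numbered 392 (228 higher, 164 lower), against 948 (535 and 413) with the replicate block, 216 (119 and 97) with no moderation and 116 to 792 (61 to 540 and 55 to 252) when single samples were left out. Genes past an adjusted p of 0.05 numbered 1, against 0 with a pseudocount of 0.1, no filter or the replicate block, 2 with no moderation or no trend, and 0 when any single sample was left out. NT5E stayed at -1.23 with no moderation, where its unadjusted p was 0.023. The cause of these shifts was not tested. Median-of-ratios scaling moved the median of all genes from 0.009 to -0.005 and changed no call among the members. With the replicate block the calls of NFKBIA and NFKB2 held. At 148 to 504 reads, the RELB values carry a counting error of up to 8.2%, which is below the spread between its samples.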

Other observations

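The genes whose levels followed NFKBIA, RELB and RELA most closely were looked up among 7393 tested genes with a mean of at least 5 RPKM. Likeness was the root mean square difference of the centred log2(RPKM + 1) values over the 6 samples, and it describes a pattern that includes the difference between the groups. For NFKBIA the nearest genes were ENSG00000267102 (0.143), SEMA4B (0.157) and NFKB2 (0.164), against a spread of NFKBIA itself of 0.63. SEMA4B, a semaphorin of the cell surface, had 23.03, 37.22 and 26.28 RPKM in CD73 siRNA replicates 1, 2 and 3 and 77.33, 52.73 and 53.64 RPKM in the controls.

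For RELB the nearest was TNFAIP3 (0.071), followed by GPRC5A (0.081) and TMEM14B (0.123), against a spread of RELB of 0.49. RELB and TNFAIP3 thus had nearly the same profile over the 6 samples, with the highest level in control replicate 1 and the lowest in CD73 siRNA replicate 3. For RELA the nearest were GTPBP1 (0.028), PCIF1 (0.032) and TERF2 (0.034), against a spread of RELA of 0.202. These 3 genes had log2 differences between -0.17 and -0.15 and did not pass an unadjusted p of 0.01 in limma.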
